A study of Mus musculus with 6 samples.

Results

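Chemokines are small secreted proteins that bind receptors of the G protein-coupled class on moving cells and steer them along a gradient. In the adult spleen, stromal cells use Cxcl13 to gather B cells into follicles, Ccl19 and Ccl21 to gather T cells around arterioles, and Cxcl12 to hold blood stem cells and plasma cells. In the embryo, Cxcl12 from mesenchyme also guides blood progenitors and vessels that carry its receptor Cxcr4. Of the 49 chemokine and chemokine receptor genes listed by symbol, 48 had a probe set on the array with that symbol alone, among 18710 genes tested. Where a gene had several such probe sets, the one with the highest mean intensity over the 6 arrays was used. The missing member was Ccl21a, whose probe sets also named other genes.

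The samples were E13.5 spleens, taken from mouse embryos at that day of gestation and measured on 3 arrays from Tlx1 homozygous embryos and 3 arrays from Tlx1 heterozygous embryos. The homeobox gene Tlx1 encodes a transcription factor needed for spleen development. The labels give the zygosity and neither the allele nor the strain, and it is assumed that homozygous means 2 altered copies, so that the heterozygous controls carry 1 altered copy too. The labels do not say whether a replicate was 1 embryo or a pool, so each p-value is set against the spread of these samples alone, and that spread may be technical.

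Array medians lay between 106 and 110 intensity units, and log2 values of 2 arrays correlated at 0.992 to 0.994 where they shared a genotype and at 0.983 to 0.992 where they did not. Tlx1 measured 171, 209 and 199.9 in homozygous spleens, against 825, 706 and 719 in heterozygous spleens, which is -1.95 ± 0.09 on the log2 scale (SE; adjusted p = 1.3e-05). The sources do not say where the allele alters Tlx1, so the probe set may lie outside that part. Wt1 and Nkx3-2, genes of spleen mesenchyme, gave signal on all 6 arrays. The lowest intensity in the whole table was 2.75, so no gene was listed at 0. All fold changes are homozygous minus heterozygous on the scale of log2(intensity + 1), and a gene was called where its limma p, adjusted by the Benjamini-Hochberg method over all genes tested, was below 0.05. In whole-organ RNA, fewer cells of a type and less RNA per cell cannot be told apart.

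Among the 48 members, 10 were higher and 1 was lower in homozygous spleens, which is 22.9% called. Among all genes tested 17.0% were called, with 10.4% higher and 6.56% lower. The median log2 fold change was 0.12 over the members and 0.02 over all genes. The risers were the ligand genes Cxcl12, Cxcl14, Ccl17, Cx3cl1, Xcl1, Cxcl5, Cxcl1, Cxcl2 and Ccl2 and the receptor gene Cxcr3, and the gene that fell was the receptor gene Ccr1. The number of members called higher depended on single arrays. It was 2 without homozygous replicate 1 (3.74% of all genes were then higher), 14 without homozygous replicate 2 (12.4%) and 4 without homozygous replicate 3 (5.28%). It was 4 without heterozygous replicate 1 (5.59%), 5 without heterozygous replicate 2 (4.38%) and 7 without heterozygous replicate 3 (9.07%). After cyclic loess between arrays it was 4 (6.97% of all genes), and with Y-linked expression as a covariate 5 (6.09%). Cxcl12 and Cxcl5 were the members called in every one of the 18 alternative fits.

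**Figure D1:**
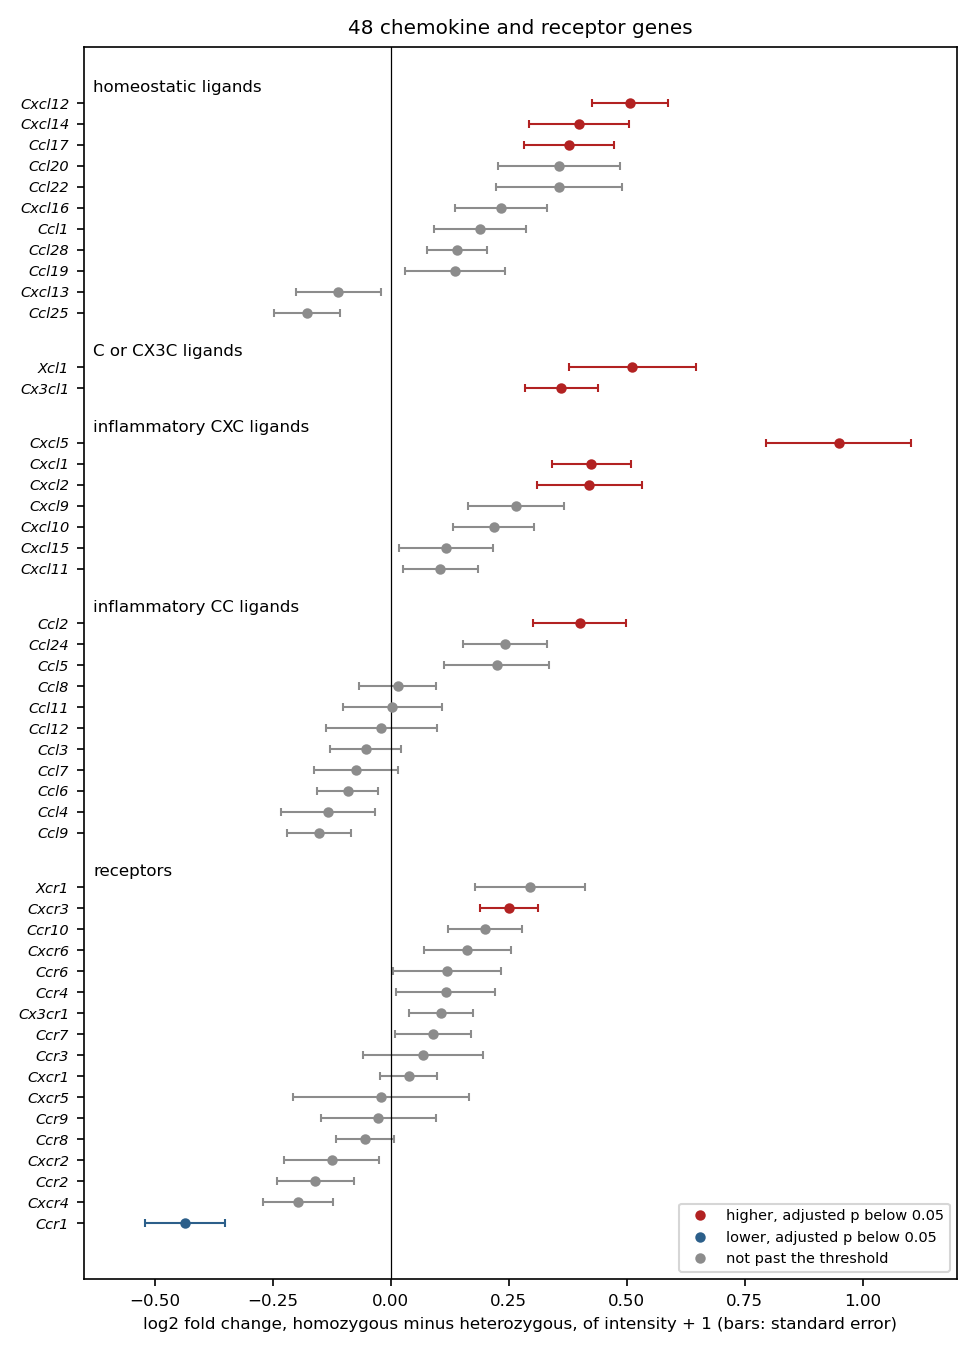
Log2 fold change of each of the 48 members (x axis, homozygous minus heterozygous, of intensity + 1; points are estimates and bars standard errors from 3 arrays per group), grouped by role down the page. Red marks the 10 members called higher, blue the 1 called lower (Ccr1) and grey the rest; Cxcl5 stands farthest right at 0.95.

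Most members were dim, and dim genes as a class leaned upward. Of the 48 members, 44 had a mean intensity below 200. In that range 15.7% of all 9811 genes were called higher and 4.26% lower, and the median log2 fold change was 0.11. Among the 44 dim members 9 (20.5%) were called higher and 1 lower, with a median of 0.13. The bound of 200 was chosen after the values were seen, and Cxcl5, with a mean of 195.7, lay just under it. The 4 brighter members were Cxcl12, Cxcl13, Cxcr4 and Cx3cr1, and in their range 4.57% of 8899 genes were higher and 9.09% lower. Without a detection call, a dim intensity does not show that a gene was expressed.

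**Figure D2:**
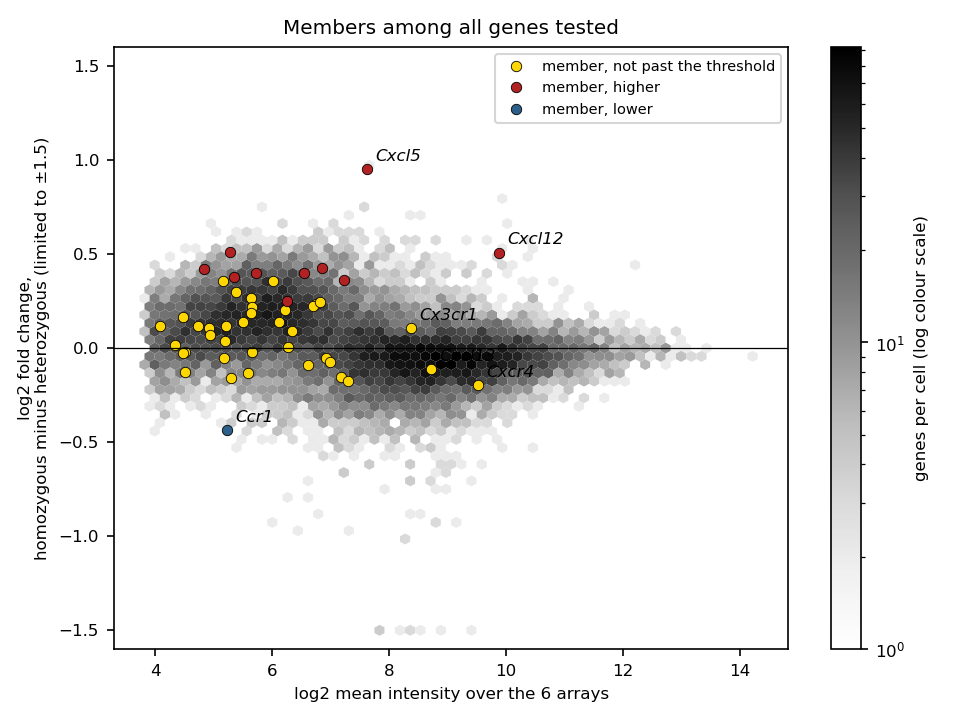
Log2 fold change (y axis, homozygous minus heterozygous, limited to ±1.5) against log2 mean intensity over the 6 arrays (x axis) for all 18710 genes, with grey cells darker where more genes lie and members as coloured points. The dim genes lie above 0 on balance, with a median of 0.11 below an intensity of 200, and Cxcl12 stands above 0 among the bright genes.

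Cxcl12, made by mesenchymal stroma and the ligand of Cxcr4, rose in homozygous spleens. Its intensity was 1096, 1193 and 1021 in homozygous spleens, against 716, 820.0 and 791 in heterozygous spleens. Every homozygous array was above every heterozygous array. The mean was 1104 ± 86.1 in homozygous and 776 ± 53.5 in heterozygous spleens (SD, n = 3 each), with a fitted difference of 0.51 ± 0.08 on the log2 scale (SE; adjusted p = 0.00605, limma), or 1.42-fold. Over the 18 alternative fits the estimate lay between 0.45 and 0.56 and the adjusted p between 0.000447 and 0.0426.

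The stretch before the start of Cxcl12 is shown because Cxcl12 was the 1 called member with a mean intensity of 200 or more. It covers chr6:117168285-117168534 on the plus strand of GRCm38.p6, as RefSeq gives it, and ends at the base before the annotated start. Capitals mark each match to the GC box GGGCGG on either strand, and 2 of the 5 matches overlap each other.
Cxcl12: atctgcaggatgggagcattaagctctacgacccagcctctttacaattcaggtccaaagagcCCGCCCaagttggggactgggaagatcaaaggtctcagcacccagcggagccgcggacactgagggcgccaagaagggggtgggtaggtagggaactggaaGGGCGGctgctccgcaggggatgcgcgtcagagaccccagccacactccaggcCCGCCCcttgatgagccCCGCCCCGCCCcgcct
The GC box is the letter pattern bound by factors of the Sp family. It was found in the same window of 32.7% of 27025 promoters and in 6 of the 37 members that have a promoter sequence in the RefSeq table. No match to the TATA box TATAAA, the nuclear receptor half-site AGGTCA, the kappa B-like pattern (GGG, any 3 bases, TTCC) or the homeodomain pattern TAATTG was found in this window.

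Cxcr4, the receptor of Cxcl12 on blood progenitors and endothelium, did not pass. Its intensity was 732, 665 and 645 in homozygous spleens, against 732, 818 and 788 in heterozygous spleens. The groups touched at their edge, where homozygous replicate 1 and heterozygous replicate 1 had nearly equal values. The log2 fold change was -0.20 ± 0.07 (SE), with a 95% interval of -0.37 to -0.03 before adjustment and an adjusted p of 0.103. The lowest adjusted p over the alternative fits was 0.0534. Ackr3, the atypical receptor that binds Cxcl12 and takes it up, was at 0.06 ± 0.09 (SE; adjusted p = 0.654).

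Cxcl13, which draws B cells and lymphoid tissue inducer cells, overlapped between the groups. It measured 399.9, 385 and 428 in homozygous spleens and 405, 497 and 411 in heterozygous spleens. The log2 fold change was -0.11 ± 0.09 (SE; adjusted p = 0.423), with an interval of -0.32 to 0.09. Its receptor gene Cxcr5 was dim, at 26.7, 15.8 and 26.1 in homozygous spleens and 22.0, 26.4 and 19.9 in heterozygous spleens. Homozygous replicate 2 was the lowest of the 6, and the estimate of -0.02 ± 0.19 (SE; adjusted p = 0.952) had the widest error of the 48 members.

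Ccl19, a ligand of Ccr7 that draws T cells and dendritic cells, also overlapped. It measured 83.0, 63.3 and 71.3 in homozygous spleens and 67.4, 59.4 and 70.1 in heterozygous spleens, with a log2 fold change of 0.14 ± 0.11 (SE; adjusted p = 0.396). The 5 probe sets named for Ccl19 alone gave differences between 0.14 and 0.20, and 2 of them held identical values. The region holds several near-identical gene copies, so the Ccl19 values are uncertain as those of 1 gene. For Ccl21, the other ligand of Ccr7, 4 probe sets with identical values each named 7 genes. They read 158, 219.8 and 126 in homozygous spleens and 139, 176 and 129.9 in heterozygous spleens, which overlap, and they entered no test. Ccr7 itself measured 90.2, 77.1 and 82.4 in homozygous spleens and 78.8, 72.5 and 82.9 in heterozygous spleens (0.09 ± 0.08, SE; adjusted p = 0.463). Of the 6 tested lymphoid-homing genes Cxcl12 alone was called, which is 16.7%, near the 17.0% of all genes, and 3 of the 6 estimates lay above 0.

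**Figure D3:**
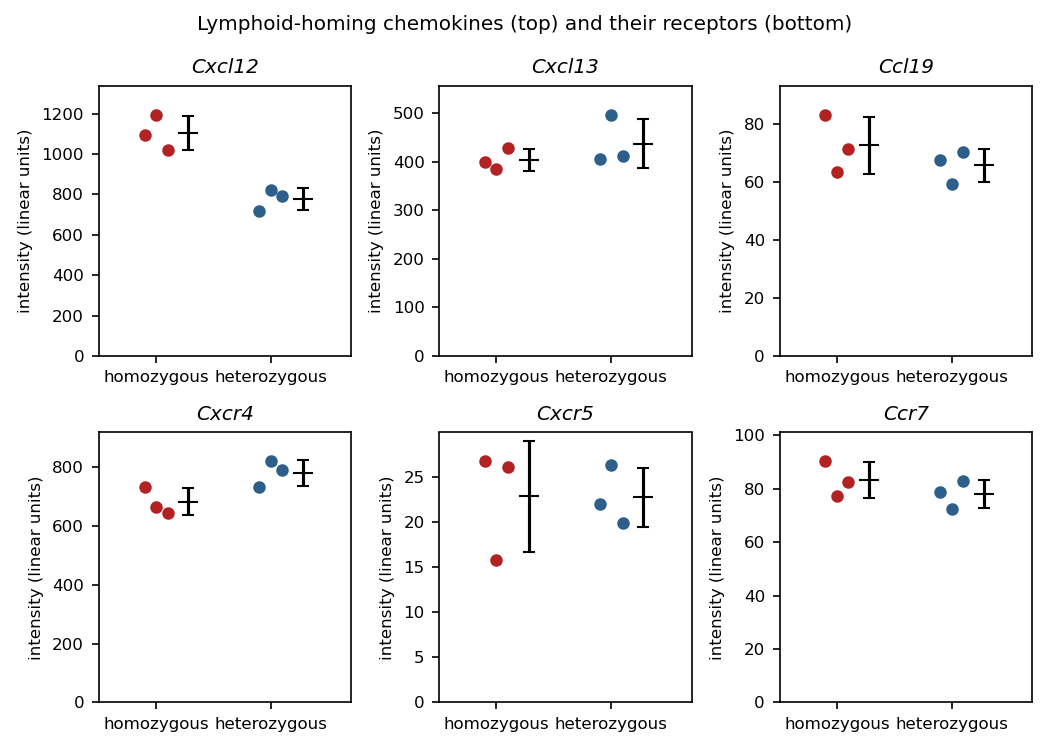
Intensity (y axis, linear units from 0) of Cxcl12, Cxcl13 and Ccl19 in the upper row and of Cxcr4, Cxcr5 and Ccr7 in the lower row, with homozygous arrays on the left in red and heterozygous arrays on the right in blue; black bars are mean ± SD of 3 arrays. The groups are apart for Cxcl12 (1104 against 776 on average) and overlap or touch in the other 5 panels.

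Of the 11 tested ligand genes grouped here as homeostatic, 3 rose and none fell (27.3% called, against 17.0% of all genes). The group holds ligands that tissues make without inflammation, though not only then. Besides Cxcl12 the risers were Cxcl14 and Ccl17. All of the group but Cxcl12 and Cxcl13 had mean intensities below 200, where 15.7% of all genes were called higher and 4.26% lower. Cxcl14, a ligand of epithelium and connective tissue, measured 104, 95.7 and 119.8 in homozygous spleens, against 76.8, 91.3 and 73.2 in heterozygous spleens. The log2 fold change was 0.40 ± 0.11 (SE; adjusted p = 0.0368). The groups did not overlap, but the lowest homozygous value was close to the highest heterozygous one. Its call held in 2 of the 6 fits without 1 array, and its adjusted p was 0.0891 after cyclic loess.

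Ccl17, a ligand of Ccr4, measured 49.8, 45.5 and 43.1 in homozygous spleens, against 30.9, 36.1 and 39.1 in heterozygous spleens (log2 fold change 0.38 ± 0.10, SE; adjusted p = 0.0303). All 3 homozygous values were above the heterozygous ones. The call was kept in 2 of the 6 fits without 1 array, and the adjusted p was 0.0797 after cyclic loess. Ccl22, the other ligand of Ccr4 and a neighbour of Ccl17 in the genome, had a similar estimate of 0.36 ± 0.13 (SE) and did not pass (adjusted p = 0.0991). Its homozygous values spread from 31.7 to 48.8. Ccr4 was at 0.12 ± 0.10 (SE; adjusted p = 0.466).

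The other homeostatic ligands did not pass. Ccl20, the ligand of Ccr6, had non-overlapping groups (72.2 ± 5.1 in homozygous and 56.7 ± 10.5 in heterozygous spleens, SD, n = 3 each), with an adjusted p of 0.0904. Cxcl16, a membrane-bound ligand of Cxcr6, was at 0.23 ± 0.10 (SE; adjusted p = 0.13), and Ccl1, a ligand of Ccr8, at 0.19 ± 0.10 (SE; adjusted p = 0.208). Ccl28, a mucosal ligand of Ccr10, was at 0.14 ± 0.06 (SE; adjusted p = 0.158). Ccl25, which draws T cell progenitors to the thymus through Ccr9, had the lowest estimate of the 31 member ligands tested. It was at -0.18 ± 0.07 (SE; adjusted p = 0.114), with 148 ± 10.4 in homozygous and 167 ± 4.33 in heterozygous spleens (SD, n = 3 each), and its second probe set gave -0.24. Over all 48 members, 14 had every homozygous array above every heterozygous one and 2 had every one below. The shares of all genes were 21.1% above and 17.2% below.

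Both ligand genes outside the CXC and CC classes were called higher. Each had a mean intensity below 200, where 15.7% of all genes were called higher. Cx3cl1, a membrane-tethered ligand that holds cells with Cx3cr1, measured 169, 154 and 184 in homozygous spleens, against 135, 127 and 132 in heterozygous spleens. The groups were apart, with a log2 fold change of 0.36 ± 0.08 (SE; adjusted p = 0.0173). The call was kept in 4 of the 6 fits without 1 array and after cyclic loess, and its adjusted p was 0.062 with Y-linked expression as a covariate. Xcl1, a lymphocyte chemokine, measured 42.6, 43.5 and 49.8 in homozygous spleens, against 29.8, 26.4 and 39.3 in heterozygous spleens. Its log2 fold change was 0.51 ± 0.13 (SE; adjusted p = 0.0345), and the call was kept in 1 of the 6 fits without 1 array and lost after cyclic loess (adjusted p = 0.0569). Their receptor genes did not pass. Cx3cr1, carried by macrophages and monocytes, was at 0.11 ± 0.07 (SE; adjusted p = 0.304), and Xcr1, carried by a class of dendritic cells, at 0.30 ± 0.12 (SE; adjusted p = 0.115).

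Cxcl5 had the largest fold change of the members. It encodes a ligand of Cxcr2 that draws neutrophils. Its intensity was 278, 223 and 270.4 in homozygous spleens, against 102, 147 and 154 in heterozygous spleens. The lowest homozygous value was well above the highest heterozygous one. The mean was 257 ± 29.7 in homozygous and 134 ± 28.2 in heterozygous spleens (SD, n = 3 each), with a fitted difference of 0.95 ± 0.15 on the log2 scale (SE; adjusted p = 0.00638, limma), or 1.93-fold. The estimate lay between 0.76 and 1.06 over the fits without 1 array.

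Cxcl1 and Cxcl2, which also act through Cxcr2, rose by less. Cxcl1 measured 142, 119 and 135 in homozygous spleens, against 90.7, 100.2 and 102 in heterozygous spleens (0.43 ± 0.08, SE; adjusted p = 0.0131), and its groups were apart. Cxcl2 measured 34.9, 27.7 and 35.0 in homozygous spleens, against 23.0, 27.2 and 21.9 in heterozygous spleens (0.42 ± 0.11, SE; adjusted p = 0.0355). Homozygous replicate 2 was barely above heterozygous replicate 2 in Cxcl2, whose call was kept in 2 of the 6 fits without 1 array and was lost after cyclic loess (adjusted p = 0.0668). Cxcl1 was called after cyclic loess and in 5 of the 6 fits, with an adjusted p of 0.0545 without homozygous replicate 1. With Y-linked expression as a covariate its adjusted p was 0.0624. Cxcr2 was at -0.12 ± 0.10 (SE; adjusted p = 0.414) and Cxcr1 at 0.04 ± 0.06 (SE; adjusted p = 0.696).

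These genes sit in 1 stretch of the genome. In RefSeq's gene order for GRCm38.p6 the protein-coding genes run Cxcl5, Ppbp, Pf4, Cxcl3, Cxcl15, Cxcl1 and Cxcl2. Ppbp and Pf4 encode platelet chemokines, and Cxcl3 a further neutrophil chemokine. Cxcl3 rose, with 27.5, 25.7 and 27.5 in homozygous spleens, against 19.2, 20.3 and 20.1 in heterozygous spleens (0.42 ± 0.06, SE; adjusted p = 0.00432). Ppbp, between Cxcl5 and Pf4, fell to 176, 106 and 255 in homozygous spleens, against 611, 626 and 458 in heterozygous spleens. Its log2 fold change was -1.73 ± 0.27 (SE; adjusted p = 0.00574). Pf4 was at -0.10 ± 0.10 (SE; adjusted p = 0.528), and Cxcl15, a chemokine of lung epithelium, at 0.12 ± 0.10 (SE; adjusted p = 0.443). In this stretch of 7 genes 4 were called higher and 1 lower, so neighbouring genes moved in opposite directions. Over all genes 10.4% were called higher and 6.56% lower. All genes of the stretch but Ppbp had mean intensities below 200, where 15.7% of all genes were called higher and 4.26% lower. Cxcl3 and Cxcl2 lay not far above the filter intensity of 15. Summed intensity of 7 megakaryocyte and platelet genes, Ppbp and Pf4 among them, lay between 799.7 and 1032 in homozygous spleens and between 1254 and 1521 in heterozygous spleens. Ppbp itself made up most of the gap between these sums, so they largely restate its own fall.

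The stretches before Cxcl1 and Cxcl2 are shown because these neighbours rose by similar amounts. They cover chr5:90890995-90891244 and chr5:90903649-90903898, both on the plus strand of GRCm38.p6, from RefSeq. Capitals mark matches to the kappa B-like pattern on either strand and, in Cxcl2, 1 match to the GC box.
Cxcl1: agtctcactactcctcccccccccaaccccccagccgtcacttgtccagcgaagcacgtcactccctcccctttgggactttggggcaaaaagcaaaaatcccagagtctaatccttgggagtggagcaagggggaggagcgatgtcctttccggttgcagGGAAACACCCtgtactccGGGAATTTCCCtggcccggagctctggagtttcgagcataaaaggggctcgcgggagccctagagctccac
Cxcl2: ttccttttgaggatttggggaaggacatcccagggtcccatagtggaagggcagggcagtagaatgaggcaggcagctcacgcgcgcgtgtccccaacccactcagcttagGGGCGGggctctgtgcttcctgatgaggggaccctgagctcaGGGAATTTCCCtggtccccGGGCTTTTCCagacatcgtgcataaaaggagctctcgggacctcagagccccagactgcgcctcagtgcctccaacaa
This pattern, GGG and TTCC with any 3 bases between, is a loose form of the kappa B site of inflammatory genes. It was found in 4.7% of 27025 promoters and in 7 of the 37 member promoters. In Cxcl1 the matches begin 89, 71 and 70 bases before the start, and in Cxcl2 97, 96 and 78 bases before it. The pair that differ by 1 base in each gene are the same run of letters read on both strands. A match is a description of the sequence and not evidence of binding.

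Of the 7 inflammatory CXC ligand genes, all had estimates above 0 and the 3 named above passed. All 7 had mean intensities below 200, where the median over all genes was 0.11 and 15.7% were called higher. Cxcl5, with a mean of 195.7, lay just under that bound. Cxcl9, Cxcl10 and Cxcl11, induced by interferon and ligands of Cxcr3, did not pass. Cxcl9 was at 0.27 ± 0.10 (SE; adjusted p = 0.103), Cxcl10 at 0.22 ± 0.09 (SE; adjusted p = 0.111) and Cxcl11 at 0.10 ± 0.08 (SE; adjusted p = 0.387). For all 3, homozygous replicate 2 lay within the heterozygous range. Without that array Cxcl9 and Cxcl10 passed, with adjusted p of 0.0216 and 0.0268. It held their lowest homozygous values, so leaving it out could only widen the difference. In that fit 12.4% of all genes were higher, and neither gene passed in any other fit without 1 array. Of 11 genes of interferon and inflammatory response, Oas1a rose (0.43 ± 0.06, SE) and Irf1 fell (-0.38 ± 0.07, SE), and the median was -0.01.

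Of the 11 inflammatory CC ligand genes 1 passed (9.09%, against 17.0% of all genes called). Ccl2, which draws monocytes through Ccr2, measured 61.1, 54.1 and 64.2 in homozygous spleens, against 43.0, 41.1 and 51.5 in heterozygous spleens. The groups were apart, with a log2 fold change of 0.40 ± 0.10 (SE; adjusted p = 0.0289). The call was kept in 2 of the 6 fits without 1 array, and its adjusted p was 0.0541 after cyclic loess. The other ligands of Ccr2, Ccl7 (-0.07 ± 0.09, SE) and Ccl12 (-0.02 ± 0.12, SE), had adjusted p of 0.602 and 0.927.

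The remaining CC ligands spread around 0. Ccl24, an eosinophil chemokine, was at 0.24 ± 0.09 (SE; adjusted p = 0.0921), and Ccl11, another one, at 0.0038 ± 0.10 (SE; adjusted p = 0.985). Ccl5, made by T cells and platelets, was at 0.22 ± 0.11 (SE; adjusted p = 0.194). Ccl3 and Ccl4, made by macrophages and lymphocytes, were at -0.05 ± 0.08 and -0.13 ± 0.10 (SE; adjusted p = 0.663 and 0.388). Ccl6 and Ccl9, both ligands of Ccr1, were at -0.09 ± 0.06 and -0.15 ± 0.07 (SE; adjusted p = 0.358 and 0.154), and Ccl8 was at 0.01 ± 0.08 (SE; adjusted p = 0.918). The median over the 11 was -0.02, and 6 estimates were below 0. The 5 neighbours Ccl5, Ccl9, Ccl6, Ccl3 and Ccl4 had a median of -0.09. The 6 neighbours Ccl2, Ccl7, Ccl11, Ccl12, Ccl8 and Ccl1 had a median of 0.01, with Ccl2 as the 1 called among them.

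Ccl22, Cx3cl1 and Ccl17 are also neighbours, with estimates between 0.36 and 0.38, of which the last 2 were called. The stretches before those 2 genes are shown for comparison, from chr8:94771930-94772179 and chr8:94810203-94810452, plus strand, GRCm38.p6, from RefSeq. Capitals mark matches to the GC box and to TATAAA in Cx3cl1 and to the nuclear receptor half-site in Ccl17. The TATAAA match begins 6 bases before the annotated start, so it is named by its letters only.
Cx3cl1: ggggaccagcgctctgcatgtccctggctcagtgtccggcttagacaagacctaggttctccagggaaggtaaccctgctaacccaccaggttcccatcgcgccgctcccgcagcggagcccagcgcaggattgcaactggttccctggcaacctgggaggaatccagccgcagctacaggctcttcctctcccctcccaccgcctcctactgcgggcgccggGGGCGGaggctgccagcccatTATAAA
Ccl17: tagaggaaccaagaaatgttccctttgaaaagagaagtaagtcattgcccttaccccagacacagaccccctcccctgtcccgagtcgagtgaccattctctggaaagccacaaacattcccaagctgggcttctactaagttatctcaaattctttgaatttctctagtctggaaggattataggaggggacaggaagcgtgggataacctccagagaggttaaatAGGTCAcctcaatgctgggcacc
The half-site AGGTCA was found in 14.0% of 27025 promoters and in 10 of 37 member promoters, and TATAAA in 12.9% and in 9 of 37. The homeodomain pattern TAATTG was found in 7.3% of all promoters and in 0 of 37 member promoters. The windows of these 2 neighbours shared no match to any of the 5 patterns.

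Among the 17 receptor genes 1 rose and 1 fell (11.8% called, against 17.0% of all genes). Ccr1, carried by myeloid cells and bound by Ccl3, Ccl6 and Ccl9, fell to 35.0, 30.7 and 28.9 in homozygous spleens, against 40.0, 44.0 and 44.7 in heterozygous spleens. All homozygous values were below the heterozygous ones. The log2 fold change was -0.44 ± 0.08 (SE; adjusted p = 0.0123), and it was called in all 6 fits without 1 array and after cyclic loess. With Y-linked expression as a covariate its adjusted p was 0.062. Among 17 macrophage and monocyte genes 1 rose (Marco, 0.44) and 1 fell (Mertk, -0.52), and their summed intensity overlapped, at 3862 to 4179.9 in homozygous and 3961 to 4085 in heterozygous spleens.

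Cxcr3, a receptor of T and natural killer cells, measured 79.5, 81.5 and 86.6 in homozygous spleens, against 68.6, 68.8 and 70.1 in heterozygous spleens. The heterozygous values were nearly equal, and the change of 0.25 ± 0.06 (SE; adjusted p = 0.0271) was the smallest of the 11 called. Its adjusted p was 0.146 after cyclic loess, and the call was kept in 1 of the 6 fits without 1 array. Among 12 lymphoid genes Cd4 (0.47) and Cd3e (0.32) were called higher and Cd79a (-0.22) lower. All 12 had mean intensities below 200, where 15.7% of all genes were called higher and 4.26% lower. The summed intensity of the 12 was 603 to 646 in homozygous and 562 to 581 in heterozygous spleens. The part of lymphoid markers in the Cxcr3 value was not tested.

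The other 15 receptor genes did not pass, and their estimates ran from -0.20 for Cxcr4 to 0.30 for Xcr1. Ccr2, carried by monocytes, was at -0.16 ± 0.08 (SE; adjusted p = 0.203), with 36.9 ± 3.27 in homozygous and 41.2 ± 2.59 in heterozygous spleens (SD, n = 3 each). Ccr10 was at 0.20 ± 0.08 (SE; adjusted p = 0.114) and Cxcr6 at 0.16 ± 0.09 (SE; adjusted p = 0.251). The intervals of Ccr3 (0.07, from -0.22 to 0.36), Ccr6 (0.12, from -0.14 to 0.38) and Ccr9 (-0.03, from -0.30 to 0.25) leave room for changes of the size seen in the called members. The interval of Ccr8 was narrower (-0.05, from -0.20 to 0.09).

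**Figure D4:**
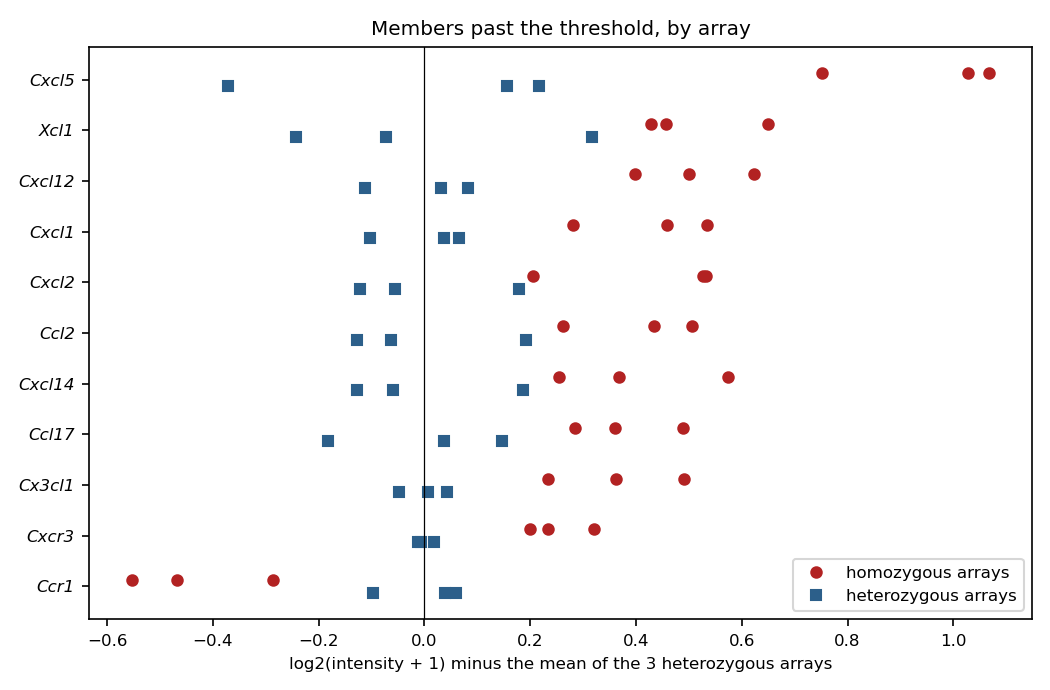
Log2(intensity + 1) of each array minus the mean of the 3 heterozygous arrays (x axis) for the 11 called members, ordered by fold change down the page, with homozygous arrays as red circles above heterozygous arrays as blue squares. Each gene's groups are apart, by a wide gap in Cxcl5 and by a narrow one in Cxcl2 and Cxcl14.

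The homozygous arrays did not contribute evenly. Of the 48 members, 29 had their highest homozygous value on replicate 1, 16 on replicate 3 and 3 on replicate 2. Over all genes with a mean below 200 these shares were 38.6%, 42.4% and 19.1%. The summed intensity of 15 epithelium and pancreas genes was 9690.1 on homozygous replicate 1, 6189 on replicate 2 and 8523 on replicate 3, against 4110.4 to 4693 in heterozygous spleens. Most of the spread between the homozygous sums came from Gcg, which was not called (adjusted p = 0.0986). Gcg measured 3751, 761 and 2728 in homozygous spleens and 98.0, 659 and 1032 in heterozygous spleens, which overlap. Of those 15 genes 5 were called higher and none lower, with Cpa1 (1.77) and Cldn6 (0.88) the largest called changes.

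Other markers moved with genotype as well. Over all genes tested 10.4% were called higher and 6.56% lower. Of 20 endothelium genes 14 fell and 1 rose, led by Tek (-0.85) and Cd34 (-0.76), and their summed intensity was 8475 to 9091 in homozygous and 11403 to 11726 in heterozygous spleens. Of 12 erythroid genes 5 fell, with Hbb-bh1 (-1.06) the largest change, and of 7 platelet genes 3 fell, with none rising. Of 9 enteric neuron and glia genes 5 rose, led by Stmn2 (0.81), and of 10 smooth muscle and pericyte genes 3 rose, with none falling. Of 13 neutrophil and mast cell genes 1 rose, Camp (0.29), and their summed intensity was 1226 to 1399.7 in homozygous and 1086 to 1106 in heterozygous spleens. Most of the gap between these sums came from Cpa3, which was not called (adjusted p = 0.0646, limma). Of 12 stem and progenitor genes 3 fell, led by Kit (-0.72). Of 10 mesothelium genes 1 rose (Msln, 0.47) and 1 fell (Wt1, -0.33), and of 10 arterial genes 1 rose (Nrp1, 0.66) and 2 fell, Gja4 (-0.37) and Gja5 (-0.32). Of 9 spleen mesenchyme genes 5 fell and 1 rose, with Nkx2-5 (-1.36) and Nkx3-2 (-1.23) the largest falls after Tlx1. The part of these markers in the chemokine values was not tested.

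The rest of the chemokine system was measured by 3 further lists. They were chosen with earlier results of these data known, so their shares called are descriptions and not tests. Of 12 other ligand and receptor genes, Cxcl3 rose, and Ppbp and the chemerin receptor gene Cmklr1 fell. The share called was 25%, against 17.0% of all genes, and Cxcl3 and Ppbp were already counted in the stretch above. Cmklr1 measured 121, 149 and 142 in homozygous spleens, against 184, 192 and 182 in heterozygous spleens (-0.44 ± 0.08, SE; adjusted p = 0.0124), with the groups apart. The atypical receptors, which take up chemokines without signalling through G proteins, did not pass. Ackr2 was at 0.18 ± 0.06 (SE; adjusted p = 0.0751), Ackr4 at 0.22 ± 0.08 (SE; adjusted p = 0.099) and Ackr1 at -0.07 ± 0.08 (SE; adjusted p = 0.574).

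Of 28 genes of signalling behind the receptors 7 fell and 4 rose, which is 39.3% called, against 17.0% of all genes. Grk5, a kinase that turns off activated receptors, fell to 404, 432 and 324 in homozygous spleens, against 724, 698 and 756 in heterozygous spleens (-0.92 ± 0.10, SE; adjusted p = 0.00138). Rgs18, which shortens G protein signals in platelets and blood cells, fell by 0.79 ± 0.07 on the log2 scale (SE; adjusted p = 0.000334). The G protein gamma subunit gene Gng11 fell by 0.75 ± 0.09 (SE) and Elmo1, which helps activate Rac, by 0.42 ± 0.07 (SE). The other called genes were Grk3 (-0.35), Arrb1 (-0.33) and Pik3cg (-0.25), which fell, and Gnao1 (0.38), Rgs3 (0.28), Pik3cd (0.24) and Gng2 (0.23), which rose. The inhibitory G protein subunit genes that chemokine receptors mainly use were not called, with adjusted p of 0.373 for Gnai2, 0.71 for Gnai1 and 0.842 for Gnai3.

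Of 16 genes that present, sulfate or cut chemokines 4 rose and 2 fell (37.5% called, against 17.0% of all genes). Chemokines such as Cxcl12 are held on heparan sulfate. Sulf2 and Sulf1, which remove sulfate groups from heparan sulfate outside the cell, were both higher. Sulf2 measured 3487, 3753 and 3466 in homozygous spleens, against 2399, 2478 and 2789 in heterozygous spleens (0.48 ± 0.08, SE; adjusted p = 0.00557), with the groups apart. Sulf1 rose by 0.37 ± 0.11 (SE; adjusted p = 0.0488) and the sulfotransferase gene Hs3st1 by 0.44 ± 0.12 (SE; adjusted p = 0.0403). Ndst2, which adds sulfate, fell by 0.36 ± 0.06 (SE; adjusted p = 0.0062), and Hs6st1 by 0.29 (adjusted p = 0.0439). Dpp4, a peptidase that cuts Cxcl12, rose by 0.25.

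**Figure D5:**
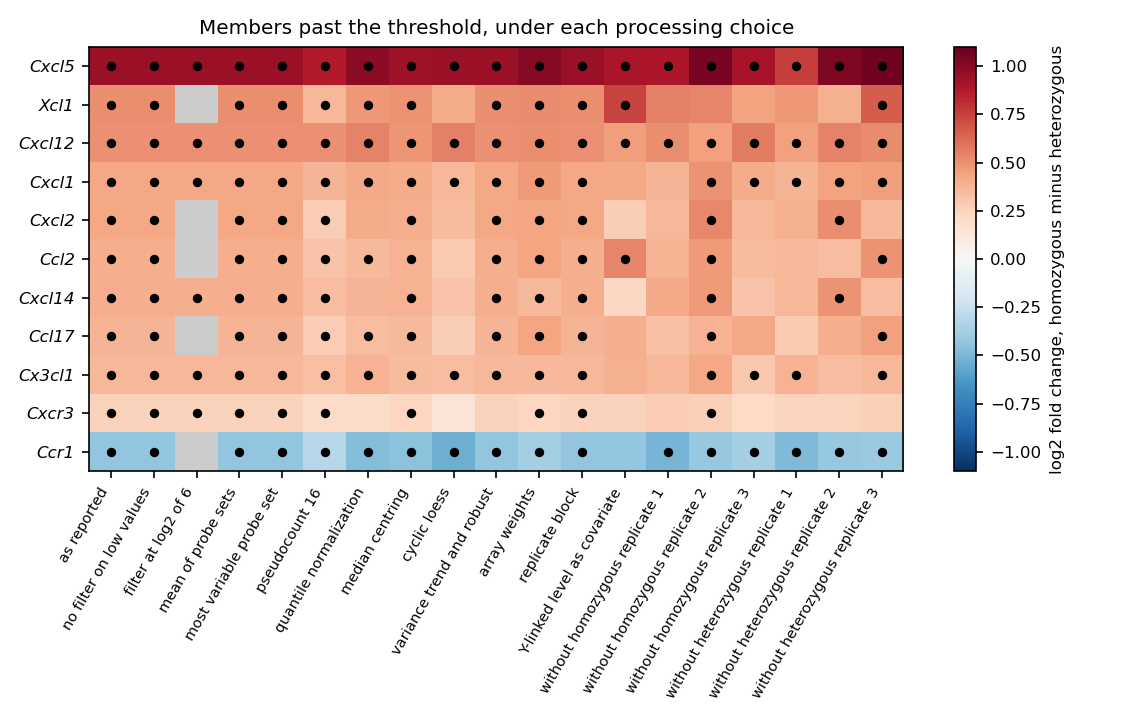
Log2 fold change (colour, homozygous minus heterozygous) of the 11 called members under the reported fit and 18 alternatives (columns), with a black dot where the adjusted p was below 0.05 and a grey cell where the gene did not pass the filter. The rows of Cxcl5 and Cxcl12 carry a dot in every column, and Cxcr3, Xcl1, Ccl2, Ccl17, Cxcl2 and Cxcl14 lose it in most columns without 1 array.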

How the data were processed

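Total RNA was measured on 6 Affymetrix arrays, 1 per sample. The deposited intensities are on a linear scale, and the submitters' processing notes name GCRMA. This method corrects each probe's background by its sequence, normalizes arrays to each other and summarises probe sets, so values carry no per-probe detection call. For its version and the genome build, the sources used here give nothing. Of 35512 probe sets, 21789 had 1 gene symbol in the platform annotation, 1621 several and 12102 none; 21698 were found in RefSeq's gene table (GRCm38.p6), with no symbol changed.

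Probe sets at a log2 value of at least 4 (an intensity of 15) on 3 or more arrays were kept, and the brightest per gene was used, which left 18710 genes and removed no member. The values as log2(intensity + 1) were fitted by lmFit and eBayes of limma 3.58.1 (R 4.3.3), homozygous minus heterozygous, without covariates. Tests were two-sided, and adding 1 makes the fold change of a dim gene smaller. The fit was tested on simulated data. Precision is limited by having 3 arrays per group.

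Members and 19 gene lists were chosen with earlier results of these data known. Named genes are all members, Tlx1, Ackr3, Pf4 and Ppbp, and per list up to 4 called genes by size of change, or, with none called, the 2 of lowest p. Also named, after their values were seen, are the remaining called genes of the signalling list and of some short lists. The other atypical receptors, the Gnai genes, Gcg and Cpa3 were named in the same way. Alternatives changed the filter, the probe set choice, the pseudocount, the scaling, the variance model, array weights, a covariate of Y-linked genes and the replicate block, or left out 1 array.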

Additional observations from a re-analysis of the deposited data

How the results depend on the processing

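Cxcl12 and Cxcl5 kept their direction and their call in all 18 alternatives. The log2 fold change of Cxcl12 was 0.46 (adjusted p = 0.0426) with Y-linked expression as a covariate and 0.56 after cyclic loess. A filter at a log2 value of 6 left 22 members, of which 6 were higher and 0 lower. Each called member that it left kept its call, and it removed Cxcl2, Ccl2, Ccl17, Xcl1 and Ccr1 before testing. Quantile normalization left 7 members higher, without Cxcl2 (adjusted p = 0.0547), Cxcl14 (0.0579) and Cxcr3 (0.0693). After cyclic loess 4 members were higher and 1 lower, and 28 of 48 estimates were above 0 rather than 33. With that covariate 5 members were higher (Ccl2, Cxcl12, Cxcl16, Cxcl5 and Xcl1) and 0 lower, and over all genes 1140 were higher and 507 lower, against 1951 and 1227 as reported. Leaving out 1 array gave 2 to 14 members higher and 1 lower in each fit, with 699 to 2319 genes higher and 499 to 1244 lower over all genes; fewer samples enter these fits. With array weights 13 members were higher. With the replicate number as a block 10 members were higher and 1 lower, and it changed no call among the members. The deviations of same-numbered replicates correlated at -0.0108, 0.0397 and -0.108, so the numbers share no visible pairing. Signs changed for 11 members, none of them called. Ccl11 was at -0.036 after quantile normalization, -0.014 after median centring, -0.096 after cyclic loess, -0.020 with array weights and -0.15 with the Y-linked covariate. After cyclic loess Ccl8 was at -0.028, Cxcr1 at -0.061, Ccr3 at -0.013 and Ccr7 at -0.0045, and after median centring Ccl8 was at -0.0036. With array weights Cxcr5 was at 0.029 and Ccr9 at 0.016. With the Y-linked covariate Ccl4 was at 0.022, Ccl12 at 0.18 and Ccr9 at 0.030. Over the fits without 1 array Ccl8 ran from -0.047 to 0.073, Ccl11 from -0.13 to 0.074, Ccl12 from -0.15 to 0.080, Ccr3 from -0.058 to 0.20, Ccr4 from -0.0074 to 0.20, Ccl7 from -0.15 to 0.024, Cxcr5 from -0.15 to 0.22 and Ccr9 from -0.17 to 0.11. The cause of these shifts was not tested.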

Other observations

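Genes of the stroma that holds blood progenitors, where Cxcl12 is made in the adult, did not move together. Of 12 such genes 5 fell and 3 rose (66.7% called, against 17.0% of all genes). This list and the lymphoid organizer list below were chosen with earlier results known, so their shares are descriptions and not tests. Kitl, the ligand of the Kit receptor, fell to 286, 336 and 281 in homozygous spleens, against 577, 584 and 587 in heterozygous spleens, a log2 fold change of -0.96 ± 0.08 (SE; adjusted p = 0.000295). Vcam1, an adhesion molecule for blood cells, rose to 439.6, 498 and 387 in homozygous spleens, against 249, 271 and 279 in heterozygous spleens (0.72 ± 0.10, SE; adjusted p = 0.00285). Ebf1, a stromal transcription factor gene, rose by 0.42 ± 0.09 (SE) and the leptin receptor gene Lepr fell by 0.33 ± 0.08 on the log2 scale (SE). The groups did not overlap for Kitl or for Vcam1.

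Of 15 genes of the lymphoid organizer pathway, which induces Cxcl13, Ccl19 and Ccl21 in stroma, 3 rose and 2 fell. The share called was 33.3%, against 17.0% of all genes. Madcam1, an adhesion molecule for lymphoid cells, fell to 300.2, 292 and 392 in homozygous spleens, against 619, 579 and 511 in heterozygous spleens (-0.80 ± 0.12, SE; adjusted p = 0.00466). Id2 rose by 0.52 ± 0.06 (SE) and Tnfsf11, which encodes RANK ligand, by 0.31 ± 0.08 (SE; adjusted p = 0.0401). The lymphotoxin beta receptor gene Ltbr fell by 0.29 ± 0.08 on the log2 scale (SE; adjusted p = 0.0392).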
